A study of Mus musculus with 11 samples.

Results

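The amino acid solute carrier genes are the *Slc1a*, *Slc3a*, *Slc6a*, *Slc7a*, *Slc36a*, *Slc38a* and *Slc43a* genes of the mouse. They were taken from the count table by name, as every gene whose symbol is one of these 7 family stems followed by a number. This gave 61 of the 29307 listed genes, and 24 of the 61 had enough counts to be tested, among 12905 tested genes in all. The rule that picks them uses names alone and no expression value, although the families were proposed with earlier results of these data known. RNA was sequenced from sorted hepatic endothelial cells (ECs) of 6 conventionally raised (CONV-R) and 5 germ-free (GF) mice, 1 library per mouse, to ask how the presence of a gut microbiota bears on the EC transcriptome.

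All mice were male C57BL/6J animals aged 10 to 12 weeks, and the labels give no genetic change for either group. GF mice were kept in sterile isolators, CONV-R mice were specific pathogen-free animals of the same colonies, and both groups ate the same autoclaved standard diet. ECs were enriched on magnetic beads for CD146 and then sorted for CD31, CD105 and CD146. GF livers gave fewer sorted ECs and less RNA, and the paper reports low viability of the sorted cells. Every library started from 20 ng of total RNA that was amplified before sequencing. In such bulk samples, fewer cells of a type and less RNA per cell cannot be told apart.

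Libraries held between 7242717 and 16164588 counts. CONV-R replicate 3 and GF replicate 2 stood apart from the rest of their groups, each by another measure. CONV-R replicate 3 had a mean correlation of 0.952 with the other CONV-R libraries on the log2 scale, across tested genes, against 0.969 to 0.973 for the remaining CONV-R libraries. In the GF group this mean ran from 0.951 to 0.960, with GF replicate 6 the lowest of all 11 libraries and GF replicate 2 the highest of its group. GF replicate 2 had counts in 22674 genes, against 15456 to 18495 genes in the other libraries. The 4 carriers that passed are therefore also given without both, and genes that lose their call without both are named. The 15 sinusoidal EC markers, such as *Stab2*, *Lyve1* and *Kdr*, were counted in every library, and their summed level ran from 37844 to 45870 CPM in CONV-R and from 36819 to 52186 CPM in GF mice. None of them passed the threshold described below by edgeR's test, DESeq2 or voom. However, 7 of 15 had an unadjusted p under 0.05 in edgeR, beside 2968 of all 12905 tested genes. The log2 of GF over CONV-R was above 0 for 11 of 15, with a median of 0.33 and *Lyve1* at 0.63, *Pecam1* at 0.46 and *Flt4* at 0.41. CPM are counts brought to a common library size by TMM normalization.

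Amino acid carriers fall into families with distinct modes of transport. SLC3A2, the heavy chain known as 4F2hc or CD98, forms a disulfide-linked dimer with one of several SLC7 light chains, brings it to the plasma membrane, and the light chain exchanges one amino acid for another. LAT1, encoded by *Slc7a5*, is the light chain that takes up large neutral amino acids such as leucine and tryptophan, and intracellular leucine is a signal for the kinase mTORC1. SLC38 and SLC1 carriers use the sodium gradient to accumulate glutamine, alanine or glutamate. Some SLC36 carriers are proton-coupled, some are lysosomal, and SLC6 carriers are coupled to sodium and chloride. In the liver, sinusoidal ECs line the path between portal blood and hepatocytes and so meet the amino acids that arrive from the gut first.

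Of the 24 tested carriers, 4 passed the threshold of 0.05 on the adjusted p. *Slc7a5*, *Slc3a2* and *Slc43a3* were higher in GF ECs, by 2.12-fold, 1.42-fold and 1.35-fold, and *Slc38a6* was lower, being 1.74-fold higher in CONV-R ECs. The 4 carriers make up 16.7% of those tested, while 965 of all 12905 tested genes (7.48%) passed. By direction, 4.8% of all tested genes were higher and 2.67% lower in GF mice. The median Log2FC (log2 of GF over CONV-R) of the 24 carriers was 0.07, with 16 values above 0 and 8 below, against -0.01 over all tested genes. An unadjusted p under 0.05 was found for 6 carriers, the 4 above with *Slc6a6* and *Slc7a6*, which is 6 of 24 beside 2968 of all 12905 tested genes. The CPM of the groups did not overlap for 4 tested carriers (16.7%), which were *Slc7a5*, *Slc43a3*, *Slc38a6* and *Slc7a6*, compared with 5.59% of all tested genes. The same 4 carriers passed in every alternative that was run, from DESeq2 and voom to the omission of any 1 mouse, and *Slc1a1* joined them in 1 of these.

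**Figure D1:**
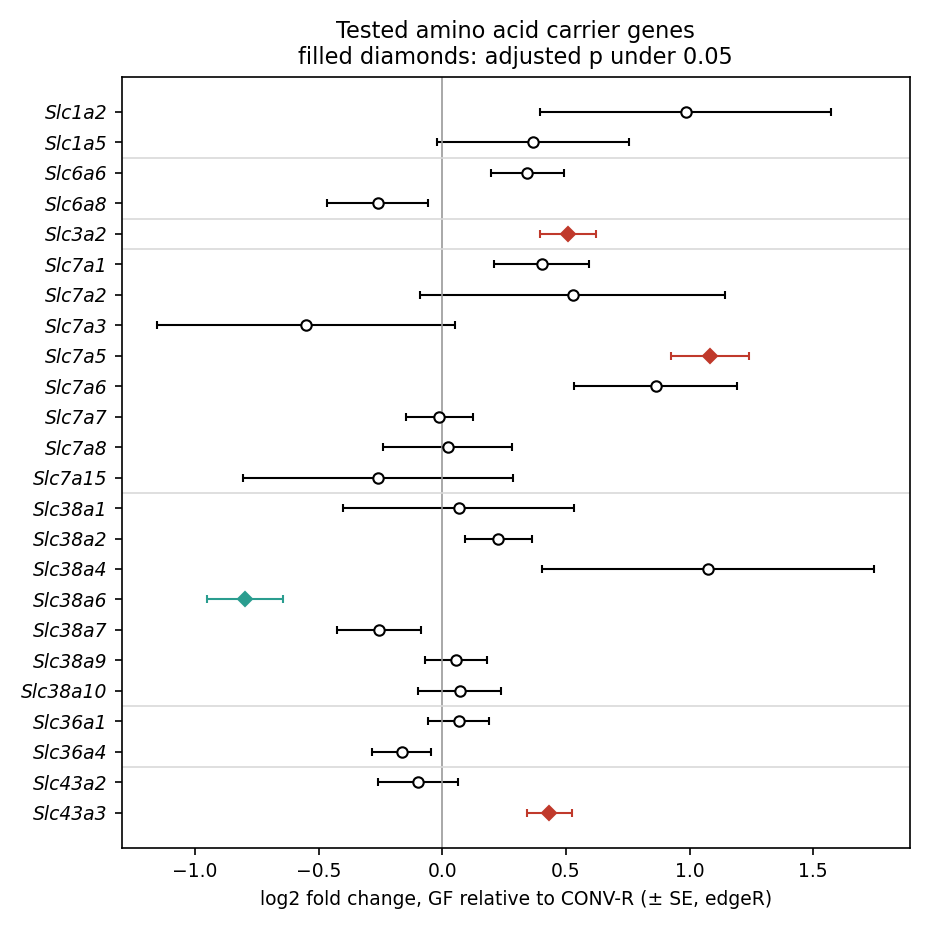
Log2 fold change of GF relative to CONV-R ECs (horizontal axis) for the 24 tested carriers, grouped by family, with bars of ± SE from edgeR over 6 CONV-R and 5 GF mice. Filled diamonds mark the 4 carriers with an adjusted p under 0.05, of which *Slc7a5*, *Slc3a2* and *Slc43a3* lie right of 0 and *Slc38a6* lies left of it, while the bars widen for carriers with few counts such as *Slc1a2* and *Slc38a4*.

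*Slc7a5* (ENSMUSG00000040010), which encodes LAT1, showed the largest difference of the carriers that passed. The gene lies on the minus strand at chr8:121881150-121907694 (GRCm38, GENCODE M21), and the only gene annotated across it, *Gm20388* on the opposite strand, has 0 counts. Its level was 29.8 CPM at the lowest, 45.9 at the median and 54.7 at the highest in CONV-R mice. The 5 GF mice had 96.5, 99.97, 117.5, 68.0 and 92.8 CPM, in the order of replicates 1, 2, 4, 5 and 6. Every GF mouse was thus above every CONV-R mouse, and the lowest value of all belonged to CONV-R replicate 3. The means were 44.8 ± 8.68 CPM (SD, n = 6) and 95.0 ± 17.8 CPM (SD, n = 5), with a Log2FC of 1.08 (SE 0.16, adjusted p = 0.00049 edgeR's quasi-likelihood test, Benjamini-Hochberg). Without CONV-R replicate 3 and GF replicate 2 the Log2FC was 0.97 (edgeR adjusted p = 0.00136).

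*Slc3a2* (ENSMUSG00000010095), the heavy chain that pairs with LAT1, was also higher in GF ECs. It lies on the minus strand at chr19:8706882-8723369. CONV-R mice had 131.0 CPM at the lowest, 151.5 at the median and 167.5 at the highest, and GF mice had 235.3, 165.4, 224.6, 202.8 and 246.6 CPM. The GF replicate with 165.4 CPM is replicate 2, and it fell just under the highest CONV-R value, while the other 4 GF mice were above all CONV-R mice. The means were 151 ± 12.6 CPM (SD, n = 6) and 215 ± 32.1 CPM (SD, n = 5), with a Log2FC of 0.51 (SE 0.11, edgeR's quasi-likelihood test, Benjamini-Hochberg adjusted p = 0.0113). Without both libraries that stand apart the Log2FC was 0.62 (edgeR adjusted p = 0.00204).

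**Figure D2:**
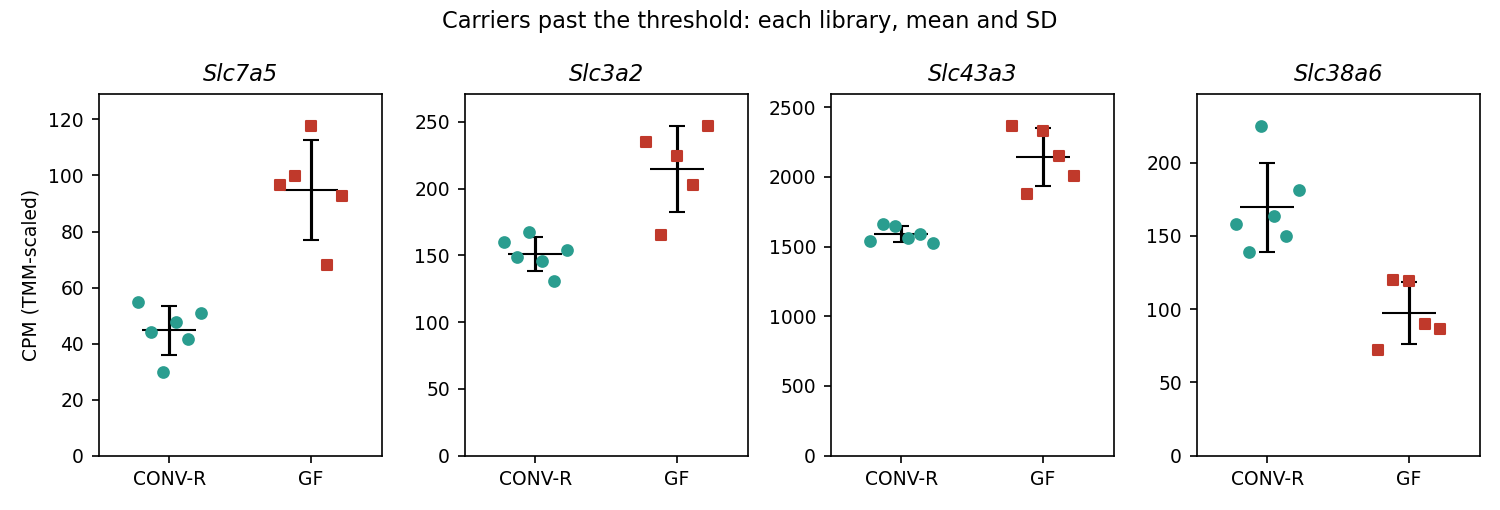
CPM of *Slc7a5*, *Slc3a2*, *Slc43a3* and *Slc38a6* in each library (points; circles for 6 CONV-R and squares for 5 GF mice), with the mean and SD as a horizontal and a vertical bar, on axes that start at 0. GF points lie above all CONV-R points for *Slc7a5* and *Slc43a3*, below them for *Slc38a6*, and overlap by a single GF point, replicate 2 at 165.4 CPM, for *Slc3a2*.

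The other light chains that can pair with SLC3A2 did not pass the threshold. *Slc7a6*, encoding y+LAT2, which exchanges cationic for neutral amino acids, came nearest. It had 1.37 to 3.68 CPM in CONV-R mice (median 2.41) and 4.22, 4.06, 3.71, 4.76 and 5.29 CPM in GF mice. Its groups did not overlap, but the nearest values were 3.68 and 3.71 CPM, and its Log2FC of 0.86 (SE 0.33) had an adjusted p of 0.125 by edgeR's quasi-likelihood test. *Slc7a7*, encoding y+LAT1, was nearly level between the groups, at 89.8 ± 17.0 CPM (SD, n = 6) in CONV-R and 89.0 ± 10.6 CPM (SD, n = 5) in GF mice (Log2FC -0.01, SE 0.14). *Slc7a8*, encoding LAT2, had 20.4 and 20.8 CPM (Log2FC 0.02, SE 0.26). The cystine/glutamate exchanger light chain *Slc7a11* had 75 counts over all libraries and did not pass the count filter. *Slc3a1*, the heavy chain of the cystine and dibasic amino acid exchanger, and its light chain *Slc7a9* had 60 and 67 counts and were not tested either.

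Cationic amino acid transporters of the SLC7 family carry arginine and lysine without a heavy chain. *Slc7a1*, encoding CAT1, had 13.8 ± 2.47 CPM (SD, n = 6) in CONV-R and 18.2 ± 4.47 CPM (SD, n = 5) in GF ECs, with a Log2FC of 0.40 (SE 0.19, edgeR adjusted p = 0.223). GF replicate 2 had the highest of these values, at 25.3 CPM, and the groups overlapped. *Slc7a2* and *Slc7a3*, encoding CAT2 and CAT3, had group means of 0.907 to 2.16 CPM, with a Log2FC of 0.53 (SE 0.62) and -0.55 (SE 0.60), both smaller than their errors. *Slc7a15* had 1.03 and 0.841 CPM (Log2FC -0.26, SE 0.55).

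Among the SLC38 genes, 7 of 11 were tested and only *Slc38a6* passed. *Slc38a6* (ENSMUSG00000044712, plus strand at chr12:73286779-73354049) encodes a member of the family known as SNAT6. In CONV-R mice it had 139.1 CPM at the lowest, 160.8 at the median and 224.7 at the highest, and in GF mice 72.1, 119.9, 119.0, 89.8 and 86.3 CPM. All GF mice were below all CONV-R mice, and the highest value was that of CONV-R replicate 3. The means were 169 ± 30.5 CPM (SD, n = 6) and 97.4 ± 21.2 CPM (SD, n = 5), with a Log2FC of -0.80 (SE 0.15, edgeR's quasi-likelihood test, Benjamini-Hochberg adjusted p = 0.00416). Without both libraries that stand apart the Log2FC was -0.79 (edgeR adjusted p = 0.00394).

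The sequence upstream of *Slc38a6* is shown because this is the only carrier that passed with a lower level in GF ECs and, of the 4 that passed, one of 2 with a promoter window in the RefSeq table for GRCm38.p6. The bases printed lie at chr12:73286598-73286778 on the plus strand, end directly before the first annotated exon, and carry in capitals a cAMP response element, the motif TGACGTCA, which is the same on both strands and starts 52 bases before that exon.
Slc38a6 upstream: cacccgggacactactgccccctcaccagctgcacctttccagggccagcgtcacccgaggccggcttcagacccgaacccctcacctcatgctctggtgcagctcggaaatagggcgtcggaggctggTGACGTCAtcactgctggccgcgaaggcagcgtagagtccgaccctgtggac
Windows ran from 250 bases before to 50 bases after each start, and 1.79% of 32851 such windows hold this motif. The window of *Slc38a6* had no match to the E-box CACGTG, present in 7.15% of windows, or to the composite motif TGATGNAA of C/EBP and ATF factors, present in 3.97%, on either strand. The RefSeq window of *Slc3a2*, at chr19:8713848-8714147, lies inside the annotated gene rather than upstream of it, and held none of the 3 motifs. A match is a run of letters and was not tested as a binding site.

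The other tested SLC38 carriers did not pass. *Slc38a2*, encoding SNAT2, a sodium-coupled carrier of small neutral amino acids, had 221 to 324 CPM in CONV-R mice (median 285) and 220, 342, 368, 345 and 363 CPM in GF mice. All GF mice but replicate 1 were above all CONV-R mice, and the Log2FC was 0.23 (SE 0.14, edgeR adjusted p = 0.336). The lysosomal members *Slc38a7* and *Slc38a9*, the latter an arginine sensor for mTORC1, had 22.9 and 57.0 CPM in CONV-R and 19.1 and 59.2 CPM in GF mice (Log2FC -0.26, SE 0.17, and 0.05, SE 0.13). *Slc38a10* had 47.7 and 50.05 CPM (Log2FC 0.07, SE 0.17). *Slc38a1* and *Slc38a4*, encoding SNAT1 and SNAT4, had group means between 0.606 and 1.64 CPM. *Slc38a4* had the largest Log2FC of the tested carriers that did not pass, 1.07, but its SE was 0.67, and its GF replicates 4 and 6, at 1.05 and 0.271 CPM, lay within the CONV-R range.

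*Slc43a3* (ENSMUSG00000027074, plus strand at chr2:84936579-84958509) was by far the most counted of all the carriers, with 51.7% of the 440522 counts in the 61 genes. Its family is named for amino acid carriers, but the SLC43A3 protein is known as a transporter of purine nucleobases. CONV-R mice had 1522.8 CPM at the lowest, 1578.9 at the median and 1665.7 at the highest, and GF mice had 2362.4, 1876.5, 2327.8, 2153.6 and 2006.9 CPM. The CONV-R mice lay close together and every GF mouse was above them, with replicate 2 the nearest. The means were 1589 ± 57.2 CPM (SD, n = 6) and 2145 ± 207 CPM (SD, n = 5), with a Log2FC of 0.43 (SE 0.09, edgeR's quasi-likelihood test, Benjamini-Hochberg adjusted p = 0.00806). Without both libraries that stand apart the Log2FC was 0.49 (edgeR adjusted p = 0.00571). *Slc43a2*, encoding LAT4, which lets large neutral amino acids out of cells down their gradient, had 427 ± 46.4 CPM (SD, n = 6) and 398 ± 120 CPM (SD, n = 5), with a Log2FC of -0.10 (SE 0.16). Summed over the 61 carriers, the CPM ran from 3160 to 3310 in CONV-R and from 3648 to 4188 in GF mice. Without *Slc43a3* the sums were 1595 to 1759 and 1510 to 1850 CPM, so that the groups then overlapped.

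The remaining tested carriers did not pass. The taurine transporter *Slc6a6* had 93.4 to 154 CPM in CONV-R mice (median 124) and 156, 179, 124, 130 and 178 CPM in GF mice. Its GF replicates 4 and 5 lay within the CONV-R range, and the Log2FC was 0.34 (SE 0.15, edgeR adjusted p = 0.172). The creatine transporter *Slc6a8* had 13.3 and 11.1 CPM (Log2FC -0.26, SE 0.20). The SLC36 genes *Slc36a1* and *Slc36a4* had 51.5 and 134 CPM in CONV-R and 53.9 and 120 CPM in GF mice (Log2FC 0.07, SE 0.12, and -0.16, SE 0.12). *Slc1a5*, encoding the glutamine exchanger ASCT2, was weakly counted at 3.00 and 3.80 CPM (Log2FC 0.37, SE 0.39). The glutamate transporter *Slc1a2* had 0.650 and 1.34 CPM (Log2FC 0.98, SE 0.59).

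Levels of different genes were compared only per kilobase of annotated exon. In CONV-R ECs *Slc43a3* stood first at 356 ± 12.8 CPM per kilobase (SD, n = 6), above *Slc3a2* at 42.8 ± 3.56 and *Slc43a2* at 42.5 ± 4.62, which did not differ beyond their spread. *Slc38a2* followed at 31.6, *Slc7a7* at 27.1, *Slc38a6* at 21.8 and *Slc36a4* at 20.5 CPM per kilobase. *Slc7a5* stood at rank 9 of 24 in CONV-R ECs with 12.1 ± 2.34 CPM per kilobase, and at rank 6 in GF ECs with 25.6 ± 4.81 (SD, n = 5). *Slc38a6* went from rank 6 in CONV-R to rank 9 in GF ECs, where it had 12.5 ± 2.72 CPM per kilobase. The heavy chain *Slc3a2* was above each of its tested light chains in both groups on this scale. Exon length is summed over all annotated transcripts. With the longest transcript in its place, 13 of the 24 CONV-R levels moved by more than 1 SD, and no rank changed by more than 2.

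**Figure D3:**
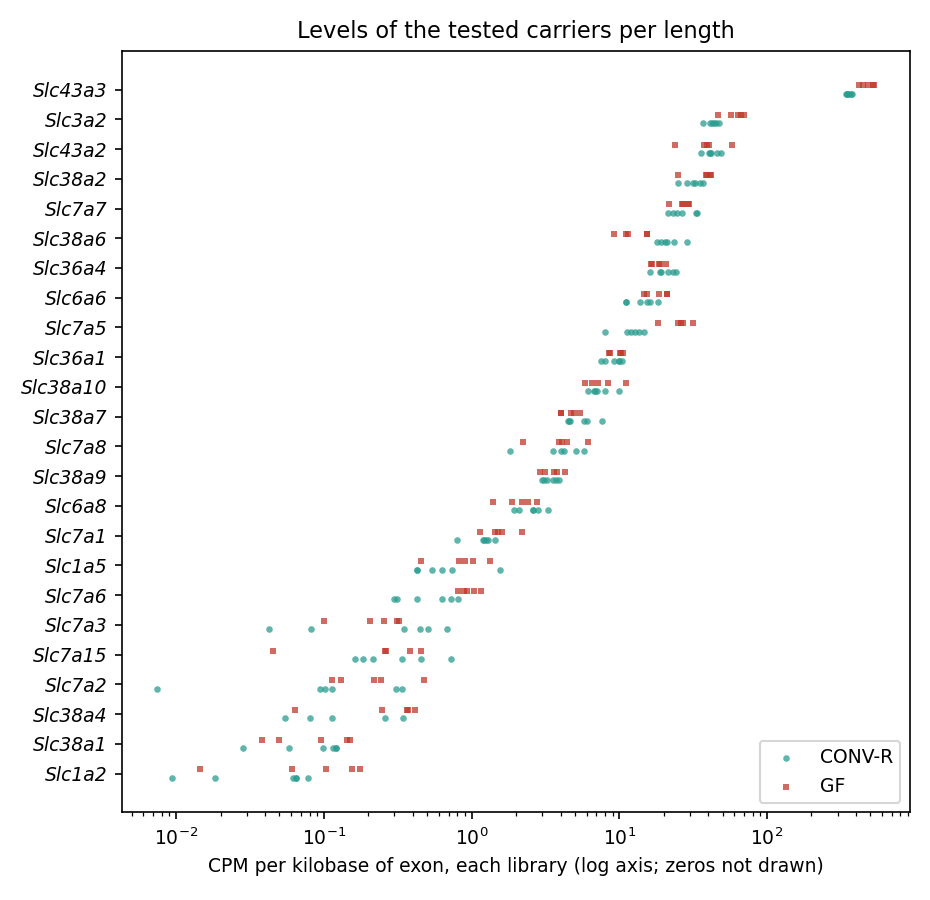
CPM per kilobase of annotated exon on a log axis for the 24 tested carriers, ordered by their mean in CONV-R ECs, with circles for the 6 CONV-R and squares for the 5 GF libraries (values of 0 are not drawn). *Slc43a3* stands apart at the top, near 356 in CONV-R and 481 in GF ECs, and the lowest carriers, such as *Slc1a2*, scatter widely between libraries of the same group.

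The other 37 carriers did not pass the count filter, and none of them passed the threshold with no filter. Their counts over all 11 libraries ran from 4 to 95, with a median of 17, and 24 of them had fewer than 20. The highest CPM of any of them in any library was 3.26. In the SLC1 family, *Slc1a1*, *Slc1a4*, *Slc1a3*, *Slc1a6* and *Slc1a7* had 95, 83, 57, 11 and 6 counts. *Slc43a1*, encoding LAT3, had 78 counts. The SLC6 family, which includes carriers of neurotransmitters, was tested in 2 of 19 genes. Among its untested members, *Slc6a9*, *Slc6a12*, *Slc6a19*, *Slc6a2* and *Slc6a4* had 39, 33, 30, 20 and 20 counts. Fewer than 20 were found for *Slc6a5* (18), *Slc6a11*, *Slc6a14* and *Slc6a17* (17 each), *Slc6a21* (16), *Slc6a13* (13), *Slc6a3* and *Slc6a16* (12 each), *Slc6a7* and *Slc6a15* (8 each) and *Slc6a18* (6). In the SLC38 family, *Slc38a3*, *Slc38a11*, *Slc38a5* and *Slc38a8* had 19, 18, 9 and 6 counts. *Slc36a3* and *Slc36a2* had 17 and 6 counts. *Slc7a14*, *Slc7a4*, *Slc7a10*, *Slc7a12* and *Slc7a13* had 15, 14, 9, 7 and 4 counts. With so few counts, no difference between the groups was tested for them under the filter.

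These 37 genes were counted unevenly across libraries. GF replicate 2 had at least 1 count for all 37, against 12 to 22 of them in each other library, and was the highest library for 15 of the 37, compared with 2 of the 24 tested carriers. Its summed CPM over the 37 was 22.9, against 3.43 to 13.3 in the others. *Slc1a1*, encoding the glutamate and cysteine transporter EAAT3, had the most counts of the 37. It had 0 to 0.859 CPM in CONV-R mice (median 0.275) and 0.260, 2.22, 0.0952, 2.78 and 3.26 CPM in GF mice. GF replicates 2, 5 and 6 were above all CONV-R mice, while GF replicates 1 and 4 lay among them. It passed the count filter and the threshold only without GF replicate 4 (Log2FC 2.66, edgeR adjusted p = 0.0470), and with no filter its Log2FC was 2.31 (edgeR adjusted p = 0.0848).

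**Figure D4:**
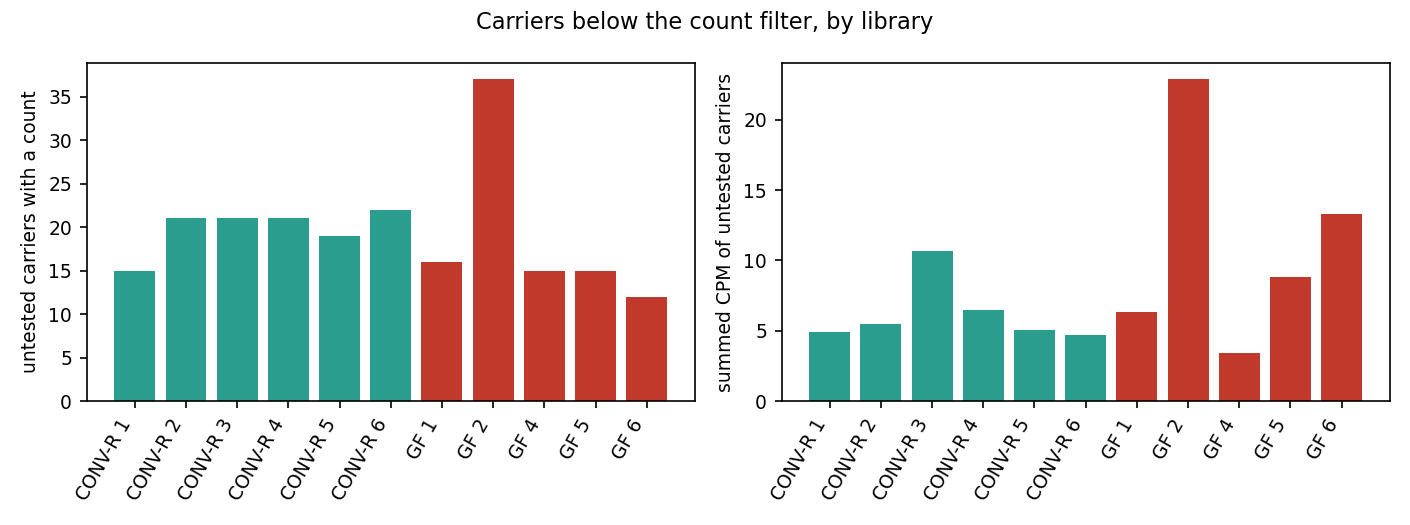
Number of the 37 untested carriers with at least 1 count (left) and their summed CPM (right) in each of the 11 libraries, as bars that start at 0, coloured by group. GF replicate 2 stands above every other library in both panels, with counts for all 37 and a sum of 22.9 CPM.

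Genes that act with these carriers were examined in 6 further lists, which together held 154 listed genes outside the carrier families, of which 126 were tested. In these lists 10 genes passed the threshold, all higher in GF ECs. This is 10 of 126, a share near the 7.48% of all tested genes that passed in either direction, while 4.8% of all tested genes passed as higher. The lists were written with earlier results of these data known.

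Of 16 tested genes in the list of stress and amino acid response, 3 passed, with a median Log2FC of 0.21 over the list. *Ddit4*, an inhibitor of mTORC1 upstream of the TSC complex, had 0.205 to 1.69 CPM in CONV-R mice (median 0.466) and 10.6, 2.90, 9.43, 2.91 and 9.90 CPM in GF mice. All GF mice were above all CONV-R mice (Log2FC 3.43, SE 0.51, edgeR adjusted p = 0.000586). With the authors' log2 values in limma, in which low counts are pulled together, its Log2FC was 2.08 (adjusted p = 0.0104). *Sesn2*, encoding the leucine sensor Sestrin2, had 12.8 ± 3.77 CPM (SD, n = 6) and 27.2 ± 6.77 CPM (SD, n = 5), with a Log2FC of 1.09 (SE 0.22, edgeR adjusted p = 0.00588). *Eif2ak3*, encoding the endoplasmic reticulum stress kinase PERK, had 44.3 ± 1.79 and 63.0 ± 9.64 CPM (Log2FC 0.51, SE 0.12, edgeR adjusted p = 0.0133). *Atf4*, encoding the transcription factor of the amino acid response, had 81.9 ± 21.5 and 77.6 ± 17.9 CPM (Log2FC -0.08, SE 0.18). Of the other genes in this list that did not pass, *Asns*, *Trib3*, *Chac1* and *Ddit3* had a Log2FC of 0.52, 0.03, -0.01 and -0.07.

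Of 20 cytosolic aminoacyl-tRNA synthetases, the enzymes that load amino acids onto tRNAs, 3 passed, with a median Log2FC of 0.14 and 17 values above 0. *Wars*, which loads tryptophan, had 78.2 to 111 CPM in CONV-R mice (median 87.7) and 223, 148, 144, 122 and 152 CPM in GF mice, with no overlap (Log2FC 0.78, SE 0.14, edgeR adjusted p = 0.00335). *Vars* and *Iars*, which load valine and isoleucine, had a Log2FC of 0.69 (SE 0.18) and 0.44 (SE 0.12), with edgeR adjusted p values of 0.0234 and 0.0326. The groups overlapped for both. *Vars* lost its call without any one of 5 mice, and *Iars* without any one of 8, without both libraries that stand apart and with no count filter. Both also lost it with the authors' log2 values in limma (adjusted p = 0.0662 and 0.0864). *Lars*, which loads leucine, had a Log2FC of -0.07.

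Of 26 tested enzymes of glutamine, glutamate and arginine metabolism, 2 passed, with a list median of 0.17. *Glul*, encoding glutamine synthetase, had 85.2 to 151 CPM in CONV-R mice (median 97.8) and 395, 179, 325, 233 and 299 CPM in GF mice. The groups did not overlap (Log2FC 1.41, SE 0.19, edgeR adjusted p = 0.000178). *Odc1*, encoding ornithine decarboxylase of polyamine synthesis, had 10.3 ± 2.83 and 17.6 ± 2.53 CPM (Log2FC 0.77, SE 0.20, edgeR adjusted p = 0.0277), and lost its call without any one of 4 mice, without both libraries that stand apart and with the authors' log2 values in limma (adjusted p = 0.0628). Endothelial nitric oxide synthase, encoded by *Nos3*, which uses arginine, had a Log2FC of 0.19 (SE 0.12).

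Of 25 tested carriers of amino acids and short peptides outside the 7 families, 2 passed, with a list median of 0.06. *Slc25a38*, a mitochondrial glycine carrier, had 11.3 ± 1.80 and 19.4 ± 4.31 CPM without overlap (Log2FC 0.78, SE 0.18, edgeR adjusted p = 0.0142). *Slc16a10*, encoding the aromatic amino acid transporter TAT1, had 0.688 ± 0.581 and 3.13 ± 2.21 CPM (Log2FC 2.12, SE 0.62, edgeR adjusted p = 0.0461), with GF replicate 4 at 0.381 CPM, below the CONV-R median of 0.506. It lost its call on the omission of any 1 mouse other than GF replicate 4, and of both libraries that stand apart, and also with voom (adjusted p = 0.141) and with a block for the replicate number (edgeR adjusted p = 0.0747). With the authors' log2 values in limma its Log2FC was 1.21 (adjusted p = 0.191). None of 30 tested genes of lysosomal amino acid sensing by mTORC1 and none of 9 tested glutathione genes passed by edgeR's test, with list medians of 0.06 and 0.09. An unadjusted p under 0.05 was found for 5 of the 30 and 1 of the 9, beside 2968 of all 12905 tested genes, DESeq2 called 2 and 1, and voom called 0 in both lists. *Mtor* had a Log2FC of 0.25 (SE 0.10, edgeR adjusted p = 0.158). The leucine sensor gene *Sesn2* and the mTORC1 inhibitor gene *Ddit4*, which passed, were counted in the stress list and not among the 30.

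Markers of macrophages were also higher in GF libraries. Of 12 tested markers of Kupffer cells and macrophages, 8 passed the threshold, all higher, and their summed level was 111 to 288 CPM in CONV-R mice (median 151) and 338, 453, 269, 292 and 1174 CPM in GF mice. Each of the 12 markers had counts in every library, except *C1qa*, at 0 in CONV-R replicate 5. In the same order of GF mice, *Slc7a5* had 96.5, 99.97, 117.5, 68.0 and 92.8 CPM. Without GF replicate 6, which had the highest macrophage sum, the Log2FC was 1.09 for *Slc7a5*, 0.45 for *Slc3a2*, 0.46 for *Slc43a3* and -0.76 for *Slc38a6*, and the 4 carriers passed, with edgeR adjusted p values of 0.00171, 0.0376, 0.0141 and 0.0154. The remaining GF mice still had macrophage sums of 269 to 453 CPM, against the CONV-R median of 151. This omission therefore does not test the part of macrophages. The 6 cholangiocyte markers summed to 0.615 to 9.21 CPM in CONV-R and 13.7 to 36.8 CPM in GF mice, without overlap. Of the 2 tested, 1 passed, *Spp1*, at 2.47 CPM in CONV-R and 13.2 CPM in GF mice. Only *Spp1* among the 6 had levels without overlap between the groups. In GF replicates 4 and 5 it was at 13.3 and 12.96 CPM, nearly all of their sums of 13.7 and 13.9 CPM. *Krt19* was at 0 CPM in both of these mice. GF replicates 1, 2 and 6 had 5.65, 3.09 and 13.8 CPM of *Krt19*, against 0 to 1.21 CPM in CONV-R mice. The lack of overlap in the sums therefore rests on *Spp1* and not on all 6 markers. *Epcam*, *Krt19*, *Krt7*, *Sox9*, *Cftr* and *Spp1* were each at 0 in at least 1 library. None of the tested hepatocyte, stellate cell or lymphocyte markers passed by edgeR's test, and their sums overlapped, at 30.2 to 75.8, 57.4 to 96.0 and 18.5 to 40.3 CPM in CONV-R and 43.1 to 95.1, 68.0 to 91.4 and 19.8 to 42.2 CPM in GF mice. An unadjusted p under 0.05 was found for 3, 1 and 2 of these markers, and DESeq2 and voom each called 0, 1 and 1. The part of macrophages or cholangiocytes in the carrier levels was not tested, and neither was that of the difference in EC markers.

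**Figure D5:**
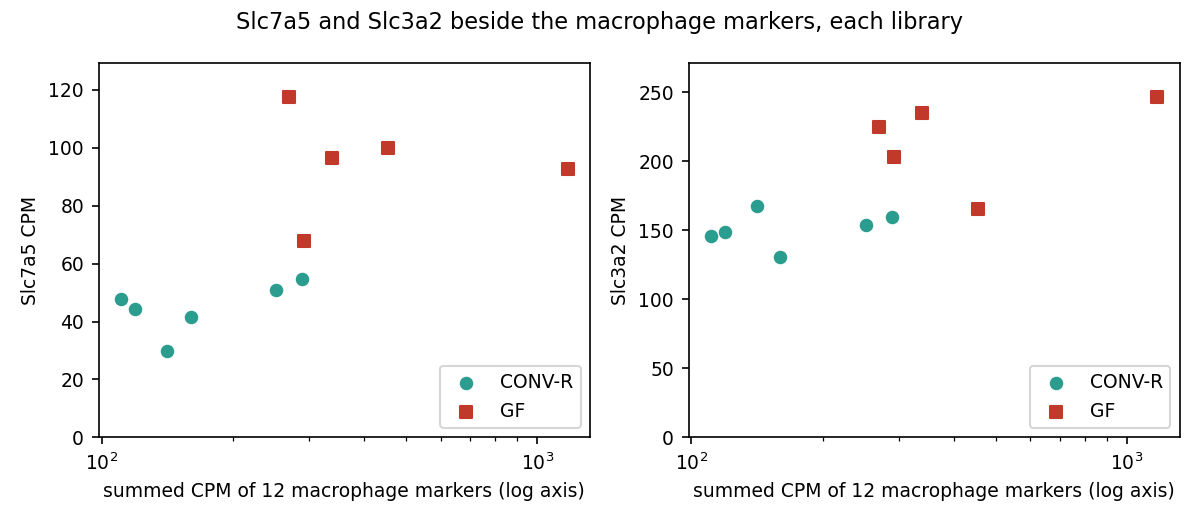
CPM of *Slc7a5* (left) and *Slc3a2* (right) in each library against the summed CPM of 12 macrophage markers on a log axis, with circles for 6 CONV-R and squares for 5 GF mice. GF libraries mostly lie further right, at 269 to 1174 against 111 to 288 CPM of markers, but GF replicate 4, at 269, lies left of CONV-R replicate 1, at 288. The *Slc7a5* points lie higher in GF mice, at 68.0 to 117.5 against 29.8 to 54.7 CPM.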

How the data were processed

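RNA of sorted hepatic ECs from 6 CONV-R and 5 GF mice was analysed, grouped by the sample labels, 1 library per mouse. The authors deposited raw counts per gene, made with Trim Galore, STAR on GRCm38 and featureCounts after amplification of 20 ng of RNA, and left out 1 GF library with few mapped reads. The authors also deposited log2 values normalized by the DESeq method, in which low counts are pulled together. The annotation release and strand setting of the counting are not given in the sources used here.

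Counts were filtered with filterByExpr, scaled by TMM and compared with edgeR 4.0.16's quasi-likelihood test in R 4.3.3, without covariates, with Benjamini-Hochberg adjustment over 12905 genes and a threshold of 0.05. CPM are counts brought to a common library size by the TMM-scaled totals. Totals lay between 7242717 and 16164588 counts before scaling. Positions and exon lengths came from GENCODE M21.

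The carriers follow from a rule on gene names, but that rule, the lists and the tests were chosen with earlier results of these data known. Every carrier that passed is given in full, the other tested carriers by their values, and the untested ones by their counts, apart from items that are not reported here; from the lists, genes that passed are named with some that did not. Alternatives were DESeq2 1.42.0 and its size factors, limma 3.58.1 with voom, robust dispersion, no filter, a minimum of 10 counts in each library, a replicate block, each mouse left out, the authors' log2 values in limma and the longest transcript as length. The omission of CONV-R replicate 3 and GF replicate 2 together was added after the data were seen. Plots were drawn with matplotlib 3.10.9.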

Additional observations from a re-analysis of the deposited data

Results flagged for a closer look

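In 2 of 48 groups of values, the CPM of the 24 tested carriers in each condition, 1 mouse lay far from the rest of its group by Dixon's criterion, which chance meets in about 1 of 20 groups. *Slc1a5* was at 6.51 CPM in CONV-R replicate 3, against 1.78 to 3.05 CPM in the other CONV-R mice. *Slc38a2* was at 220 CPM in GF replicate 1, against 342 to 368 CPM in the other GF mice.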

How the results depend on the processing

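The same 4 carriers passed under each alternative that was run. DESeq2 called 17 of the genes in the further lists (15 higher, 2 lower in GF) in place of 10, and 1527 of all genes in place of 965. With each mouse left out in turn, 4 to 5 carriers, 6 to 15 genes of the further lists and 622 to 1260 of all genes passed. The lowest count for the further lists, 6, came without CONV-R replicate 5 or 6 and the highest, 15, without GF replicate 5. The lowest count over all genes, 622, came without GF replicate 6, and the next lowest without CONV-R replicate 4. Same-numbered mice are different animals and did not deviate together (correlations from -0.01 to 0.20 over 5 pairs, with 1 of 5 CONV-R mice closest to its own number). With a replicate block, 4 carriers, 12 genes of the further lists and 1101 of all genes passed. The block used 5 mice a group, and the cause of the differences was not tested.

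Signs changed only for carriers that did not pass. With voom *Slc7a7* was at 0.0017 and *Slc7a8* at -0.000303, with no filter *Slc7a8* was at -0.0036, and with the authors' values *Slc7a7* was at 0.0166. With the replicate block *Slc38a1*, *Slc38a10*, *Slc7a3* and *Slc7a8* had a Log2FC of -0.21, -0.0032, 0.0153 and -0.16. Without both libraries that stand apart *Slc38a1* and *Slc7a8* were at -0.10 and -0.15. With a mouse left out, the Log2FC ran from -0.14 to 0.26 for *Slc38a1*, from -0.0933 to 0.17 for *Slc38a10*, from -0.0227 to 0.12 for *Slc38a9*, from -0.27 to 0.0368 for *Slc43a2*, from -0.0716 to 0.0601 for *Slc7a7* and from -0.15 to 0.18 for *Slc7a8*. The 37 carriers under the count filter had at most 95 counts each.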
